A study of Mus musculus with 162 samples.

Results

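The 31 genes described here are the semaphorins, the plexins and the neuropilins of the mouse: 20 semaphorins, 9 plexins and 2 neuropilins. They were chosen by symbol, as every gene of the deposited normalized table named Sema with a digit and a letter, Plxn with a letter and an optional digit, or Nrp1 or Nrp2, which gave 31 of 22800 genes. The rule itself uses no measured value. The study sequenced the cytosol of single neural cells of mouse embryos aged E17.5 to E18.5, drawn into patch-clamp pipettes, so that each sample is 1 cell. Of 162 cells, 122 came from the Htr3a Cre line, 22 from the Lhx6 Cre line and 18 from the Nex Cre line. The labels mark 148 cells as passed in quality control, 114, 17 and 17 by line in the same order, and 14 as failed. Driver lines are lines in which Cre recombinase is expressed from the regulatory sequence of the named gene; how the cells were picked within each line is not given in the sources used here. No other allele, treatment or culture is named.

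All groups share the embryonic age, and they differ in cell type label and driver line. MGE-derived 1 held 18 passed cells (11 Htr3a, 7 Lhx6) and MGE-derived 2 held 24 (17 Htr3a, 7 Lhx6). CGE-derived held 11 cells, all of the Htr3a line, and GABAergic held 4 (3 Htr3a, 1 Lhx6). Glutamatergic 1 held 33 (23 Htr3a, 10 Nex), Glutamatergic 2 held 13 (12 Htr3a, 1 Nex), Cajal Retzius held 12 (all Htr3a) and VZ-derived held 11 (8 Htr3a, 1 Lhx6, 2 Nex). MGE and CGE, not written out in the labels, are the usual short forms of the medial ganglionic eminence and its caudal counterpart, and VZ that of ventricular zone. A further 22 cells are labelled Undefined and entered no comparison. These labels give 126 cells with a type. Which cells came from the same mouse is not labelled. Each group was therefore treated as 1 sample, the comparisons carry no test and no p-value, and spreads are between cells, which are not replicates of a condition.

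Semaphorins are secreted or membrane-bound proteins that steer growing axons and migrating neurons, and plexins are the receptors through which they signal. Most secreted (class 3) semaphorins do not bind a plexin alone but act through a neuropilin that holds a plexin of the A group. The membrane-bound classes bind plexins directly, class 4 mainly the B group and class 6 the A group. In the embryonic forebrain the system is known for guiding cortical axons and for keeping interneurons that migrate from the ganglionic eminences to the cortex out of the striatum.

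A passed cell held 1710224 to 24836041 gene counts (median 9463972 over the 148 cells) and 2066 to 14810 genes with a count. Levels are counts per 1000000 of a cell's gene counts (CPM), or of the summed counts of a group; a level set between genes is divided by the length of the gene's exons in kilobases. A difference is the mean over cells of log2(CPM + 1) in the first group minus that in the second, which can understate the change of low genes. Where many cells are at 0 it depends on the share of cells with a count. It can then exceed the change in summed level or have the other sign. For Nrp1 in Glutamatergic 1 against 2 it was -6.77, against -2.60 from summed counts. A gene was counted in a comparison when it had a count in 10% or more of the cells in 1 of the groups, and it was called past a difference of 1 on the log2 scale. The median number of genes per cell ran from 4563 in MGE-derived 1 to 7585 in Glutamatergic 2, and the share of all genes called in a comparison is given beside the members' count. The labels were set against marker genes: the summed CGE markers (Adarb2, Prox1, Sp8, Htr3a, Nr2f2) had a median of 3146 CPM per CGE-derived cell, MGE markers 2111 and 2391 CPM in MGE-derived 1 and 2 against 0.888 in CGE-derived cells, and all 6 Cajal-Retzius markers were present in Cajal Retzius cells at a summed median of 12005 CPM. Cajal Retzius cells also had a median of 386 CPM of the CGE markers. At least 3 MGE markers reached 10 counts in 9 of 18 MGE-derived 1 cells. GABAergic markers had medians of 1501 to 2245 CPM in the GABAergic-class labels and 0 in both Glutamatergic labels. Single cells departed from this: the GABAergic cell of the Lhx6 line held 89.3 CPM. The highest Glutamatergic 1 and Cajal Retzius cells held 1279 and 1416 CPM. At least 3 of 6 glutamatergic markers reached 10 counts in 4 of 24 MGE-derived 2 cells (highest cell 2623 CPM) and 2 of 11 CGE-derived cells. No MGE-derived 1 or GABAergic cell reached this. In VZ-derived cells the median cell had 0 CPM of 8 ventricular zone markers (highest cell 1002) and 1051 CPM of 6 glutamatergic markers. The label can be read as an origin, like MGE-derived, and these markers do not test an origin. It is used here as a name only. In 18 cells with a type label, at least 3 of 9 microglia markers reached 10 counts (5 MGE-derived 2 cells, 3 Glutamatergic 1 cells, 2 cells each of Glutamatergic 2, Cajal Retzius, CGE-derived and VZ-derived, and 1 cell each of GABAergic and MGE-derived 1). Their summed level per cell had medians of 0 to 8.17 CPM by label and a highest cell of 129.8 CPM in CGE-derived to 15459 CPM in MGE-derived 1; P2ry12 was at 0 in CGE-derived and Cajal Retzius cells. These cells are called cells with microglia markers below.

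The sequences just before the start of 4 members are shown because their transcripts set labels apart in the comparisons that follow: Nrp1 and Sema4d between the Glutamatergic labels, Sema3a between MGE-derived and CGE-derived cells, and Plxnd1 in Cajal Retzius cells. Each is the 250 bases before a RefSeq transcript start in GRCm38.p6, 5′ to 3′ on the strand of the gene, with every CANNTG (the E-box, a motif that reads the same on both strands and is bound by basic helix-loop-helix factors) in capitals.
Nrp1: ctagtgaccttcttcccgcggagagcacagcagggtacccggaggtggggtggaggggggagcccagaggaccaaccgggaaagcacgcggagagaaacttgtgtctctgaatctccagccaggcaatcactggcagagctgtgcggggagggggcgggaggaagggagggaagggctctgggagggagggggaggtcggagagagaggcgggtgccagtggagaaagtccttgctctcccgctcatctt
Sema4d: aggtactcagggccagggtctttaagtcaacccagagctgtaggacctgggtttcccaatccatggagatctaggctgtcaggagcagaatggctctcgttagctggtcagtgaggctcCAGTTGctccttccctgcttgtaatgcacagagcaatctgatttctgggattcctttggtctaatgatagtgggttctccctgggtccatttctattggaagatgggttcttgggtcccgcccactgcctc
Sema3a: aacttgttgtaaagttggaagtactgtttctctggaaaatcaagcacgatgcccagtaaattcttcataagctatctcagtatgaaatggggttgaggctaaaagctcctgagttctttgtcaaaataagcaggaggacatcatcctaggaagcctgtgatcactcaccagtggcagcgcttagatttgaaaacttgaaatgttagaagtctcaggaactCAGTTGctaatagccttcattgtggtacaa
Plxnd1: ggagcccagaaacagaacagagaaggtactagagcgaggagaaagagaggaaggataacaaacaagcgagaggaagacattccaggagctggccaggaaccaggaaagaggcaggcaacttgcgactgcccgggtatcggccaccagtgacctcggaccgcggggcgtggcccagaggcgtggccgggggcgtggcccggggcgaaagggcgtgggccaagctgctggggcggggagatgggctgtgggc
The Nrp1 window lies at chr8:128358823-128359072 on the plus strand and the Sema3a window at chr5:13396534-13396783 on the plus strand. The Sema4d window lies at chr13:51739447-51739696 on the minus strand, before 1 of its 3 starts in the table, and the Plxnd1 window at chr6:115995006-115995255 on the minus strand. None of their bases falls in an exon annotated in GENCODE M21; those of Nrp1, Sema4d and Sema3a lie within an intron of their own gene, and that of Plxnd1 directly before its gene. G and C make up 64.4% of the Nrp1 window, 64.8% of the Plxnd1 window, 52.4% of the Sema4d window and 40.8% of the Sema3a window. CANNTG occurs once in the Sema4d and Sema3a windows and not in the Nrp1 and Plxnd1 windows. Over 37 windows of the 26 members found in the table, 19 (51.4%) held CANNTG, against 66.2% of 32851 windows of the same length. The letters CCAAT, read on both strands, occur 2 times in the Sema4d window and in 33.8% of all windows. A match of letters is a description of the window.

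A typed cell held counts of 0 to 29 of the 31 genes, with a median of 10 (15 in Glutamatergic 2 cells, 8 in MGE-derived 1 cells). Per kilobase of exon and over all passed cells, Plxna3 stood highest at 11.5 CPM per kb, followed by Sema6a (10.7), Plxna2 (9.09), Plxnb2 (8.82) and Sema6c (8.61). These levels lie close together, and single cells spread over a wider range than the gaps between them. In at least 1 label, 22 members reached a count in 50% of the cells together with 20 CPM: 12 semaphorins, 8 plexins and both neuropilins. The other 9 were Plxnb3, Sema3b, Sema3d, Sema3e, Sema3f, Sema3g, Sema5b, Sema6d and Sema7a. Cells within a label differed widely, and most members were at 0 in many cells of every label. A count of 0 does not show that a cell lacked the transcript.

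**Figure D1:**
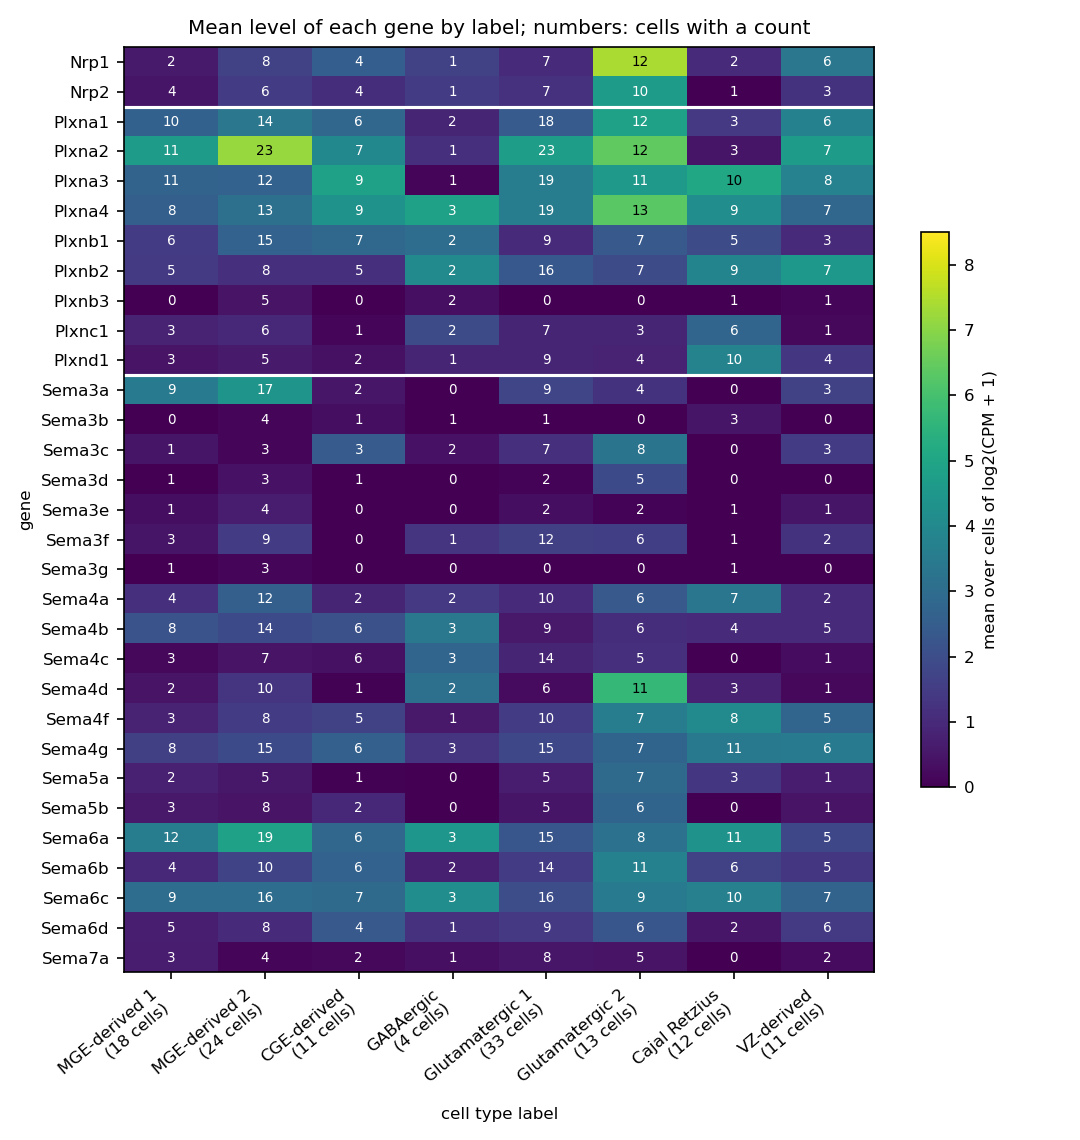
Levels of the 31 genes by cell type label. Colour shows the mean over cells of log2(CPM + 1), and the number in each field is the count of cells with at least 1 count. Nrp1 and Sema4d stand out in Glutamatergic 2, Plxna2 and Sema3a in the MGE-derived labels, and Plxnd1 in Cajal Retzius cells.

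Nrp1 (ENSMUSG00000025810, chr8:128358604-128503363, plus strand), the neuropilin that binds Sema3a and also vascular endothelial growth factor, was highest in Glutamatergic 2 cells. There it ranged from 0 to 743 CPM with a median of 288, and 12 of 13 cells held a count; the summed counts gave 289.7 CPM (exact Poisson 95% interval 287 to 292, counting error only). In Glutamatergic 1 cells it ranged from 0 to 356 CPM with a median of 0 and a count in 7 of 33 cells. Only Glutamatergic 2 and VZ-derived cells had a median above 0. VZ-derived cells followed at 98.7 CPM (6 of 11 cells, median 1.83, highest 418) and CGE-derived cells at 71.5 CPM (4 of 11 cells). The remaining labels were lower, from 8.01 CPM in MGE-derived 1 (2 of 18 cells) to 38.2 CPM in Glutamatergic 1. Among the 4 GABAergic cells, 1 Htr3a cell held 107 CPM and the others held none.

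Nrp2 (ENSMUSG00000025969, chr1:62703285-62818695, plus strand), the neuropilin for Sema3f, was found in the same label most often: 10 of 13 Glutamatergic 2 cells held it, with a median of 32.5 and a highest value of 214 CPM. Glutamatergic 1 summed to 65.5 CPM from 7 of 33 cells, and 1 cell carried much of that: without it the level was 30.4 CPM. In Cajal Retzius cells Nrp2 had 1 count in all, 0.00641 CPM. Its median was 0 in every label except Glutamatergic 2. The neuropilins shared their highest label, although cells of all labels overlapped at 0 for Nrp2 and at 0 or low values for Nrp1.

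The A plexins, which signal for the neuropilins and bind class 6 semaphorins directly, were widely found: 121 of 126 typed cells held at least 1 of the 4. Singly, Plxna2 was counted in 87 typed cells, Plxna3 and Plxna4 in 81 each and Plxna1 in 71, against 79 for Sema6a. Plxna2 (ENSMUSG00000026640, chr1:194618218-194816869, plus strand) had a count in 23 of 24 MGE-derived 2 cells, from 0 to 1269 CPM with a median of 224. MGE-derived 1 summed to a like level, 272 against 289 CPM, but only 11 of its 18 cells held a count and the median was 18.6. Glutamatergic 2 had 183 CPM (12 of 13 cells, median 171) and Glutamatergic 1 156 CPM (23 of 33 cells, median 65.5). Cajal Retzius cells stood at the low end with 1.03 CPM, 3 of 12 cells and a highest cell of 22.1 CPM, below the median of both MGE-derived 2 and Glutamatergic 2.

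Plxna4, a receptor shared by Sema3a signalling and Sema6a, had a count in all 13 Glutamatergic 2 cells, from 0.28 to 841 CPM with a median of 107. CGE-derived cells summed higher, to 210.1 CPM, but 1 cell carried most of the counts and 83.8 CPM remained without it (median 17.3). Plxna3, which acts with Nrp2 in Sema3f signalling, had its highest median in CGE-derived cells at 60.3 CPM (9 of 11 cells, 141 CPM summed, 68.5 without the top cell). Cajal Retzius cells were next with a median of 54.7 CPM and 10 of 12 cells. Plxna1, a receptor for Sema6d, ran in its summed level from 17.04 CPM in Cajal Retzius to 81.7 CPM in VZ-derived cells, apart from 1.23 CPM in the 4 GABAergic cells. Its highest median was 35.996 CPM, in Glutamatergic 2, where 12 of 13 cells held it.

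Among the B plexins, receptors of class 4 semaphorins, Plxnb2 (a receptor for Sema4c and Sema4d) was highest in VZ-derived cells. It ranged there from 0 to 536 CPM with a median of 151 and a count in 7 of 11 cells. Cajal Retzius cells had 60.7 CPM (9 of 12 cells, median 37.1). The 4 GABAergic cells held 340.3, 240.0, 0 and 0 CPM, the first of them of the Lhx6 line. Every other label had a median below 1 CPM. Plxnb1, the receptor of Sema4d, had a median below 2 CPM in all labels but GABAergic, and summed highest in CGE-derived cells (69.4 CPM, 37.9 without the top cell). Plxnb3, a receptor for Sema5a, had no count in 4 labels and at most 2.27 CPM, in MGE-derived 2; 553 of its counts came from cells with microglia markers and 4 from the other typed cells.

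Plxnc1, the receptor of Sema7a, and Plxnd1, which binds Sema3e without a neuropilin, shared their highest label, Cajal Retzius. Plxnd1 (ENSMUSG00000030123, chr6:115954811-115995005, minus strand) had a count in 10 of 12 Cajal Retzius cells, from 0 to 159 CPM with a median of 34.4, and summed to 37.2 CPM (36.3 to 38.2). All other labels had a median of 0, the next being VZ-derived at 13.3 CPM (4 of 11 cells). Plxnc1 had 49.8 CPM in Cajal Retzius cells (6 of 12 cells, median 1.17, highest 210.4). Plxnd1 is also known from blood vessels, and endothelial and mural markers had a summed median of 17.4 CPM per Cajal Retzius cell against at most 0.0826 in the other labels. Of those 9 markers Rgs5 had 22.5 CPM in 8 Cajal Retzius cells, while Cldn5, Flt1, Cdh5, Tie1 and Kcnj8 were at 0.

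Of the secreted semaphorins, Sema3a (ENSMUSG00000028883, chr5:13125414-13602565, plus strand), a repellent of cortical axons and of migrating interneurons, was found mainly in the MGE-derived labels. MGE-derived 2 cells ranged from 0 to 1913 CPM with a median of 14.9 and a count in 17 of 24 cells, and MGE-derived 1 cells from 0 to 874 CPM with a median of 0.334 and 9 of 18 cells. Summed counts gave 229 and 163 CPM in these labels, against 60.2 in Glutamatergic 1, 39.4 in VZ-derived and 2.08 in CGE-derived cells. No count was found in the 12 Cajal Retzius cells or the 4 GABAergic cells, where 3 counts would have been 0.0192 and 0.0521 CPM. In all other labels its median was 0.

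Sema3c, which attracts cortical axons, summed to 157 CPM in CGE-derived cells from 3 of 11 cells and to 95.5 CPM in VZ-derived cells from 3 of 11. It was found in more of the Glutamatergic 2 cells, 8 of 13, at 35.3 CPM (median 21.2, highest 111), and had no count in Cajal Retzius cells. Sema3f, the Nrp2 ligand, reached at most 32.6 CPM, in Glutamatergic 1 (12 of 33 cells, 14.7 CPM without the top cell), and had no count in CGE-derived cells. Sema3d was found in 5 of 13 Glutamatergic 2 cells (46.2 CPM, 8.86 without the top cell) and in 7 typed cells of other labels. Sema3e, the Plxnd1 ligand, had counts in 11 typed cells and at most 13.5 CPM, in MGE-derived 2. Sema3b and Sema3g did not exceed 1.83 CPM in any label.

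The class 4 semaphorins are membrane proteins. Sema4d (ENSMUSG00000021451, chr13:51685529-51793747, minus strand), the ligand of Plxnb1, was found in 11 of 13 Glutamatergic 2 cells, from 0 to 311 CPM with a median of 115 and 106 CPM summed (105 to 108). The GABAergic cells held 0, 69.6, 0 and 84.7 CPM, and every other label had a median of 0, down to 0.0256 CPM (3 counts in 1 cell) in CGE-derived cells. Sema4f summed highest in Cajal Retzius cells (101 CPM, 8 of 12 cells, median 53.5), then in Glutamatergic 2 (70.7 CPM, 7 of 13 cells, median 31.02). Sema4g was found in 11 of 12 Cajal Retzius cells at 24.4 CPM, while its higher sums in VZ-derived (62.01 CPM) and MGE-derived 1 cells (57.4 CPM, 8.49 without the top cell) came from smaller shares of the cells. Sema4a had its highest sum in MGE-derived 2 (61.9 CPM, 12 of 24 cells, median 0.0536) and its highest median in Cajal Retzius cells (30.01 CPM, 7 of 12 cells).

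Sema4b and Sema4c, which bind the synaptic scaffold protein PSD95, owed their highest sums to single GABAergic cells. Sema4b was at 0, 2.51, 546 and 5.29 CPM in the 4 cells, so that 156 CPM became 2.52 without the third cell. Sema4c was at 0, 0.168, 9.12 and 185 CPM, and 47.5 CPM became 3.46 without the fourth. Outside that label Sema4b was highest in MGE-derived 1 (64.7 CPM, 8 of 18 cells) and Sema4c did not exceed 3.08 CPM.

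Sema6a, a transmembrane ligand of Plxna2 and Plxna4, was the semaphorin found in most typed cells, 79 of 126. MGE-derived 2 cells ranged from 0 to 2589 CPM (median 46.9, 19 of 24 cells), and Cajal Retzius cells from 0 to 463 CPM (median 39.997, 11 of 12 cells). The GABAergic cells held 357, 0.67, 416 and 0 CPM. CGE-derived cells summed to 211 CPM, of which 20.8 remained without the top cell, and their median was 0.0622. Sema6c was found in 10 of 12 Cajal Retzius cells (median 23.7 CPM) and 16 of 24 MGE-derived 2 cells (median 6.96), with the highest sums in the GABAergic cells (117 CPM; 0, 2.18, 324 and 99.97 CPM) and MGE-derived 1 (100.1 CPM). Sema6b summed highest in CGE-derived cells (43.98 CPM) and was found in 11 of 13 Glutamatergic 2 cells at 25.9 CPM (median 17.05). Sema6d, a ligand of Plxna1, also summed highest in CGE-derived cells (39.2 CPM, 4 of 11 cells).

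The class 5 semaphorins, which carry thrombospondin repeats, had their highest sums in Glutamatergic 2: Sema5a at 51.1 CPM (7 of 13 cells) and Sema5b at 39.4 CPM (6 of 13 cells). Neither had a count in the GABAergic cells. Sema7a, the lipid-anchored ligand of Plxnc1, did not exceed 2.40 CPM in any label. Its counts came from 25 typed cells.

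**Figure D2:**
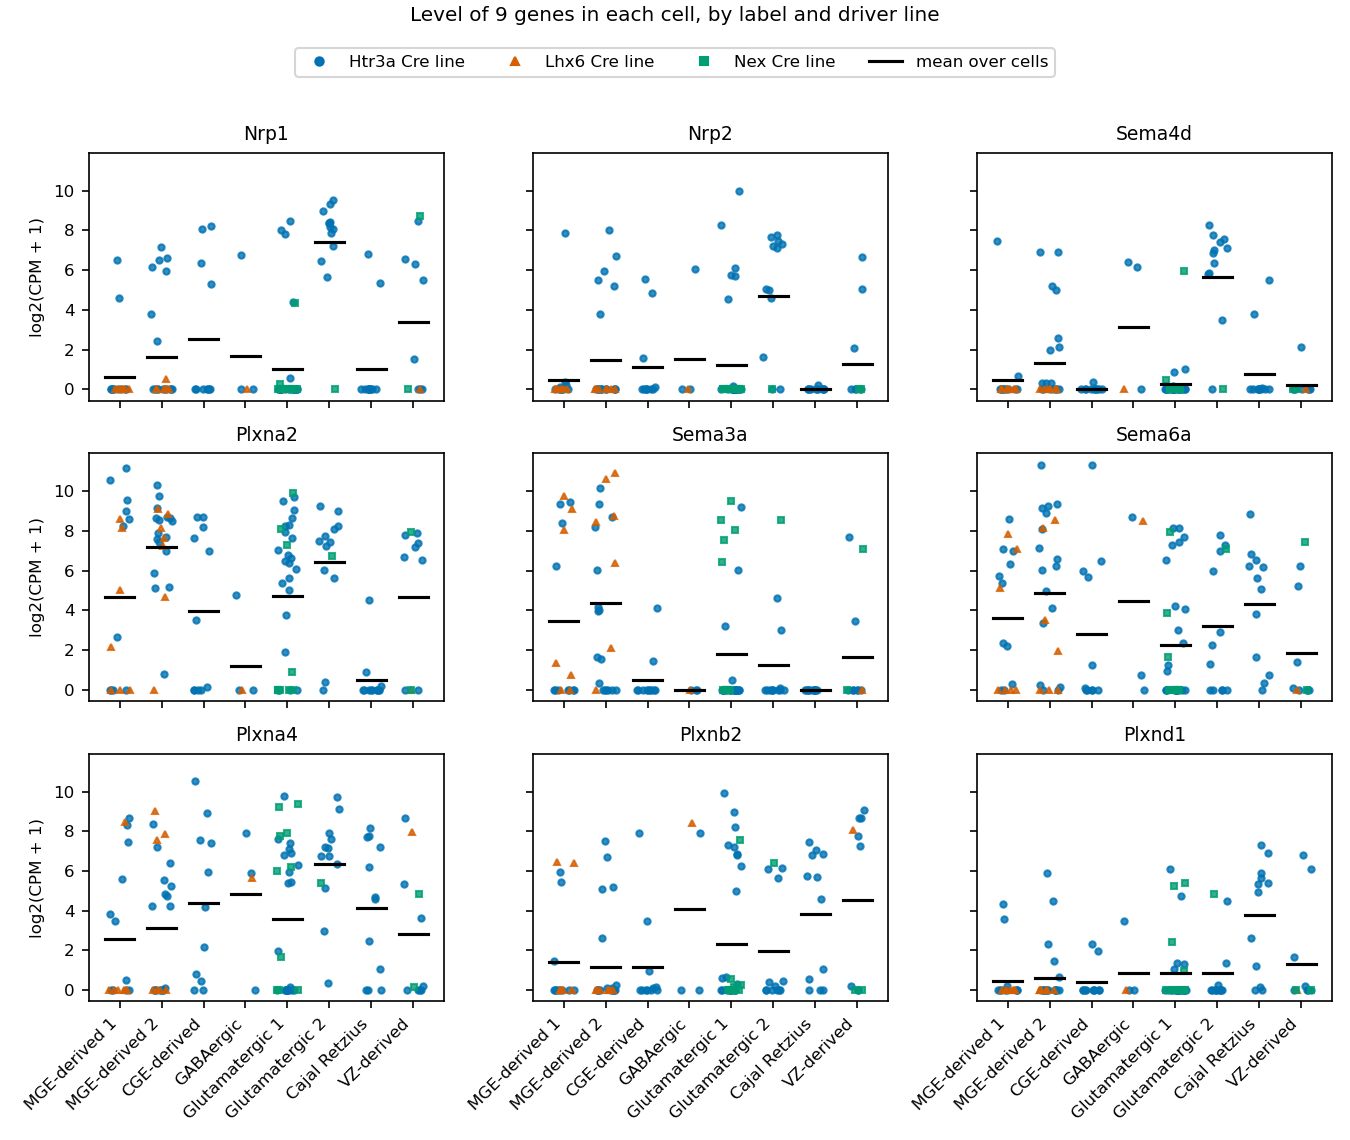
Level in each cell, as log2(CPM + 1), of 9 members by cell type label; points are single cells coloured by driver line and black bars are means over cells. For Nrp1 and Sema4d the Glutamatergic 2 cells form a band above 0 that few Glutamatergic 1 cells reach, and for Plxna2 Cajal Retzius cells lie mostly at 0.

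The 9 comparisons were made between labels or lines, and several of them share cells: the Glutamatergic cells of the Htr3a line enter 5 of them, so their results are not independent of each other. With a pseudocount of 10 in place of 1, between 0 and 7 members were called in each. For the other alternatives (other scalings, filters, depths, lines or cells, listed in the account of the processing), the value closest to 0, or farthest past it, is given for each named member that did not stay past 1. The first set all cells of the 4 GABAergic-class labels (MGE-derived 1 and 2, CGE-derived, GABAergic; 57 cells) against both Glutamatergic labels (46 cells). The semaphorins Sema6a, Sema3a and Sema4b were higher in the GABAergic class, and both neuropilins, Plxna4 and Sema3c were lower. Sema6a stood at 174 against 47.7 CPM (40 of 57 against 23 of 46 cells), a difference of 1.52 (SD between cells 3.75 and 3.15, n = 57 and 46 cells). Sema3a differed by 1.41 (138 against 48.5 CPM) and Sema4b by 1.41 (56.4 against 4.81 CPM). Sema3a was higher through the MGE-derived labels: in CGE-derived and GABAergic cells its summed level was below that of Glutamatergic 1. Nrp1 was at 27.4 against 127 CPM (15 of 57 against 19 of 46 cells), a difference of -1.34; Nrp2 differed by -1.12, Plxna4 by -1.06 and Sema3c by -1.03. Of the Glutamatergic labels, only Glutamatergic 2 held the neuropilins in most cells. Nrp1 had a count in 7 of 33 Glutamatergic 1 and 12 of 13 Glutamatergic 2 cells, and Nrp2 in 7 and 10 of them. The share of Glutamatergic 1 cells with either gene was near that of the GABAergic class. In all, 3 of 29 counted members were higher and 4 lower, where 6.07% and 9.74% of all genes were (15.8% in all). The members' median difference was -0.41, that of all genes -0.02. None of the 7 differences exceeded the SD between cells in both groups, and the groups overlapped for each. Sema3a, Sema4b, Nrp1 and Nrp2 stayed past 1 under the alternatives other than the pseudocount of 10, and the others fell within it (with at least 4000 genes, Sema6a 0.45; from summed counts, Plxna4 -0.20 and Sema3c -0.48). From summed counts the split was 8 higher and 8 lower. Within the Htr3a line alone, 4 members were higher and 6 lower of 30 counted, where 6.95% and 13.4% of all genes were (20.4% in all).

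Among interneurons of the Htr3a line, MGE-derived cells (28) carried more Sema3a, Plxna2 and Sema6a than CGE-derived cells (11), and less Plxna3 and Sema3c. Sema3a had a count in 15 of 28 against 2 of 11 cells, at 141 against 2.08 CPM, a difference of 2.76 (SD between cells 3.90 and 1.27, n = 28 and 11 cells). Plxna2 was at 322 against 124 CPM (24 of 28 against 7 of 11 cells, difference 2.68). For Sema6a the mean over cells was higher by 2.20 (24 of 28 against 6 of 11 cells), but the summed level was 177 against 211 CPM, the other way round (-0.26 from summed counts), with 1 CGE-derived cell holding most of the counts. Sema4d (1.38) and Sema4a (1.29) completed the higher members. Lower in MGE-derived cells were Plxna3 (-2.32, 16 of 28 against 9 of 11 cells), Sema3c (-1.98), Sema6d (-1.41), Sema6b (-1.39) and Plxna4 (-1.20). These are 5 of 31 members in each direction, beside 19.3% and 8.58% of all genes (27.9% in all), and no difference passed the SD of both groups. Apart from the pseudocount of 10, Sema3a, Plxna2, Sema3c and Sema6b stayed past 1 throughout, and the rest did not (from summed counts, Sema6a -0.26, Sema4a 0.60 and Plxna3 -0.82; without cells with microglia markers, Sema4d 0.50 and Sema6d -0.81; with at least 4000 genes, Plxna4 -0.51). From summed counts 14 were higher and 7 lower.

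MGE-derived 1 and 2 differed mainly in Plxna2, which was counted in 11 of 18 against 23 of 24 cells and differed by -2.53, although the summed levels were close (272 against 289 CPM) and the difference in mean CPM had the other sign (0.23). Sema4a (-1.42), Sema6a (-1.26), Plxnb1 (-1.20) and Nrp1 (-1.02) were also lower in MGE-derived 1. None of the 5 stayed past 1 under every alternative (from mean CPM, Plxna2 0.23; in the Htr3a line alone, Sema4a -0.49; with at least 4000 genes, Sema6a -0.0794; from summed counts, Plxnb1 -0.41; with 5000 to 9000 genes, Nrp1 0.81). None of the 31 members was higher and 5 were lower, where 2.61% and 22.6% of all genes were (25.2% in all); the medians were -0.36 for the members and -0.39 for all genes. MGE-derived 2 cells also had more genes per cell (median 5493.5 against 4563). From summed counts 6 members were higher and 10 lower. Within the Htr3a line none was higher and 8 were lower, beside 2.28% and 31.4% of all genes (33.7% in all). Within the Lhx6 line 2 were higher and 7 lower of 23 counted, beside 25.8% and 21.7% of all genes (47.5% in all), and Plxna2 was lower there too (-3.10).

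Between the Glutamatergic labels of the Htr3a line (23 and 12 cells) the ligand Sema4d and both neuropilins were lower in Glutamatergic 1. Nrp1 ranged from 49.3 to 743 CPM with a median of 308 in Glutamatergic 2, where all 12 cells held it, and from 0 to 356 CPM with a median of 0 in Glutamatergic 1, where 5 of 23 did. The difference was -6.77 (SD between cells 2.86 and 1.13, n = 23 and 12 cells), and the summed level was 6.07 times as high in Glutamatergic 2. The groups overlapped through the few Glutamatergic 1 cells with Nrp1. Sema4d had a count in 3 of 23 against 11 of 12 cells, at 0.125 against 114 CPM, a difference of -6.03 (SD between cells 0.28 and 2.30, n = 23 and 12 cells). The only Glutamatergic 2 cell of the line without Sema4d overlapped with Glutamatergic 1. Nrp2 differed by -3.31 (SD between cells 3.16 and 2.97, n = 23 and 12 cells), with a count in 7 of 23 against 10 of 12 cells, but its summed levels were close (88.9 against 97.6 CPM) with 1 Glutamatergic 1 cell holding much of the counts. These 3 were the members whose difference passed the SD between cells in both groups. They stayed at -6.31, -5.98 and -2.53 among cells with 5000 to 9000 genes, and at -6.54, -5.73 and -3.61 without cells with microglia markers.

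The other members lower in Glutamatergic 1 included receptors, Plxna4 (-3.34) and Plxna1 (-2.28), and the ligands Sema5b (-2.63), Sema5a (-2.23), Sema3d (-1.97), Sema6b (-1.92) and Sema3c (-2.37). In all 14 of 28 counted members were lower and 1 higher, beside 48.4% and 1.89% of all genes (50.3% in all), so the share of lower members was near that of all genes. The median difference was -1.11 for the members and -0.95 for all genes, and Glutamatergic 2 cells had more genes per cell. Under the authors' scaling the median over all genes with a value there was -0.86 against -0.96 from CPM. The single higher member, Plxnb2 (1.39; 62.5 against 16.3 CPM), was named after its values were seen. Under the same alternatives Nrp1, Sema4d, Plxna4, Sema5b, Sema5a and Sema3d stayed past 1, but the other named members did not (from summed counts, Nrp2 -0.14, Plxna1 -0.16 and Sema3c 1.06; from mean CPM, Sema6b -0.68; over all driver lines, Plxnb2 0.38). From summed counts the split was 7 higher and 11 lower.

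**Figure D3:**
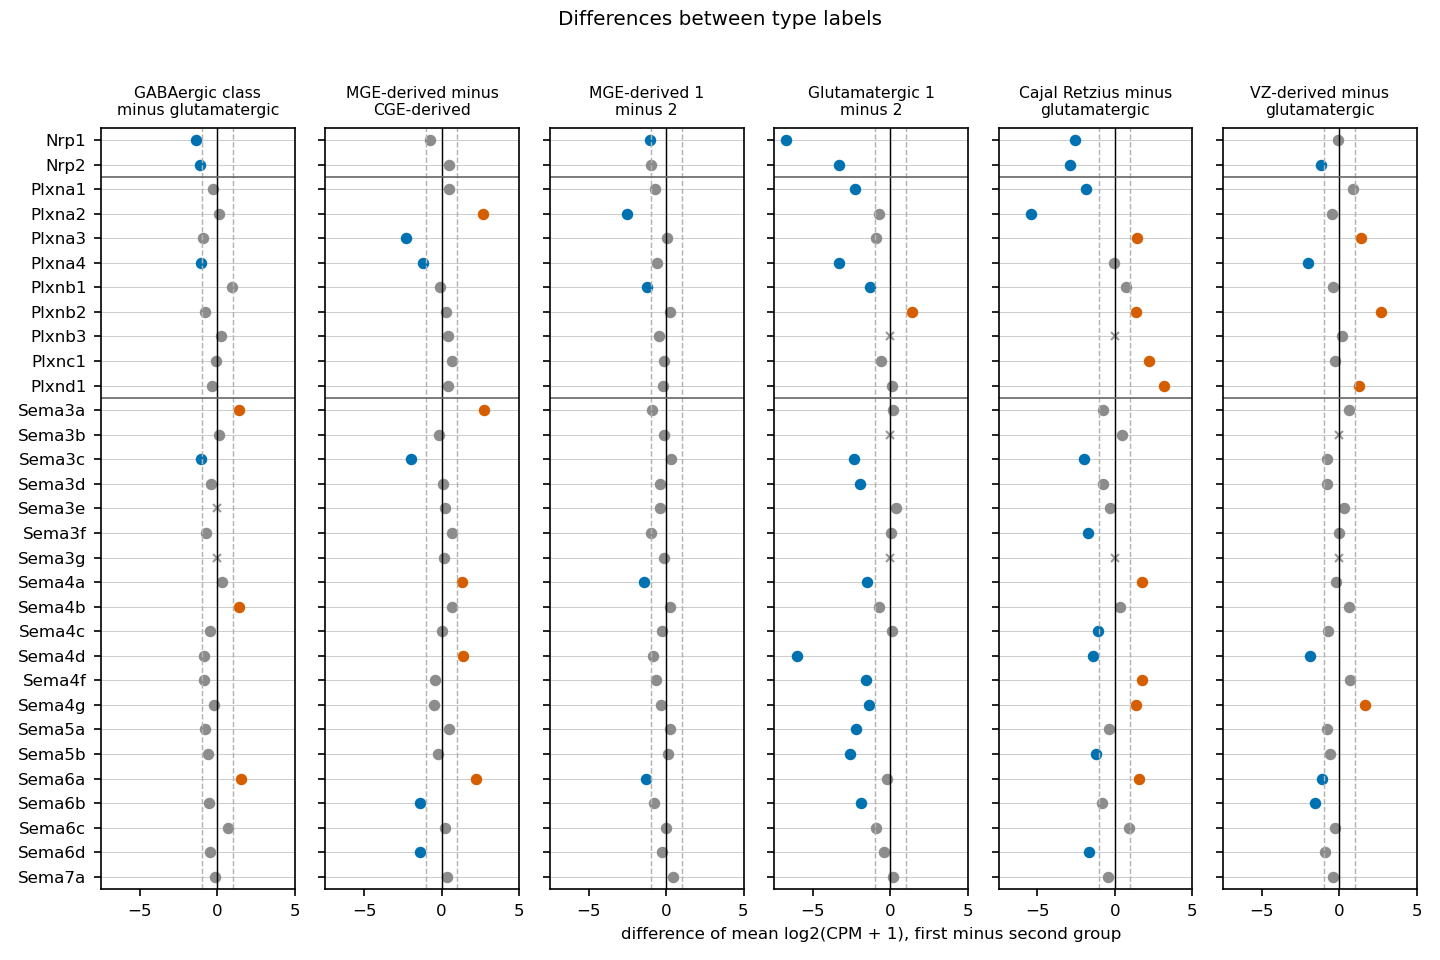
Differences in mean log2(CPM + 1) of each member in the 6 comparisons between labels. Orange points are higher and blue points lower by at least 1 in the group named first, grey points lie within 1 (dashed lines), and crosses mark members not counted; Sema6a (MGE-derived against CGE-derived), Plxna2 (MGE-derived 1 against 2), Sema3c and Sema4g (Glutamatergic 1 against 2), and Sema4g and Plxnb2 (Cajal Retzius) have the other sign in mean CPM. The largest shifts are those of Nrp1 and Sema4d between the Glutamatergic labels and of Plxna2 in Cajal Retzius cells.

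Cajal Retzius cells, the reelin-secreting neurons at the surface of the developing cortex, carried the plexins C1 and D1 and little of the neuropilins or Plxna2 when set against the Glutamatergic cells of the same line (12 against 35). Plxna2 was counted in 3 of 12 against 30 of 35 cells, at 1.03 against 178 CPM, a difference of -5.44 (SD between cells 1.31 and 3.14, n = 12 and 35 cells). Plxnd1 was counted in 10 of 12 against 8 of 35 cells, at 37.2 against 4.42 CPM, a difference of 3.20 (SD between cells 2.81 and 1.48, n = 12 and 35 cells). These were the members whose difference passed the SD between cells in both groups, and the groups still overlapped at low values. Nrp2 (-2.88), Nrp1 (-2.58), Sema3c (-1.98), Plxna1 (-1.88) and Sema3f (-1.70) were lower, and Plxnc1 (2.23), Sema4a (1.74) and Sema4f (1.73) were higher. For the neuropilins the contrast lay mainly with Glutamatergic 2. Over all lines, either neuropilin had a count in 3 of 12 Cajal Retzius, 11 of 33 Glutamatergic 1 and 12 of 13 Glutamatergic 2 cells. Of 29 counted members 8 were higher and 10 lower, beside 30.5% and 9.13% of all genes (39.7% in all); the median was -0.36 for the members and 0.42 for all genes. From summed counts 5 were higher and 16 lower. Of the named members, all but 2 stayed past 1 apart from the pseudocount of 10 (from summed counts, Sema4a 0.34; with 5000 to 9000 genes, Sema4f 0.69). Without cells with microglia markers Plxna2 differed by -5.82 and Plxnd1 by 3.26.

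VZ-derived cells of the Htr3a line (8, against the same 35) differed most in Plxnb2, at 227 against 43.7 CPM (6 of 8 against 18 of 35 cells), a difference of 2.72 (SD between cells 4.29 and 3.43, n = 8 and 35 cells), and 3.22 without cells with microglia markers. Sema4g (1.67), Plxna3 (1.43) and Plxnd1 (1.25) were also higher. Plxna4 (-1.99), Sema4d (-1.89), Sema6b (-1.58), Nrp2 (-1.17) and Sema6a (-1.12) were lower. For Sema4d the contrast lay mainly with Glutamatergic 2. Over all lines it had a count in 1 of 11 VZ-derived, 6 of 33 Glutamatergic 1 and 11 of 13 Glutamatergic 2 cells. Of these 9 calls Plxnb2 and Sema4d kept to the same side of 1, and 7 did not (with 5000 to 9000 genes, Sema4g 0.65; over all driver lines, Plxna3 -0.0789, Plxnd1 0.48, Sema6b -0.80, Nrp2 -0.95 and Sema6a -0.67; from summed counts, Plxna4 -0.51); over all driver lines 5 of the 9 were lost. The counts were 4 higher and 5 lower of 29, beside 13.9% and 16.2% of all genes (30.1% in all), with medians of -0.30 and -0.00484. No difference passed the SD of both groups. From summed counts 6 members were higher and 11 lower.

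Cells of 1 label from different driver lines come from different mice, so that line, animal and cell choice cannot be told apart. In MGE-derived 2, Sema3a was higher in Lhx6 cells than in Htr3a cells. It ranged from 0 to 1913 CPM with a median of 346 in 7 Lhx6 cells, and from 0 to 1144 CPM with a median of 2.14 in 17 Htr3a cells (6 of 7 against 11 of 17 cells), a difference of 3.32 (SD between cells 4.21 and 3.76, n = 7 and 17 cells). Sema3e (2.15, 2 cells in each line) was also higher. Sema6a (-2.42), Plxnb1 (-2.31), Nrp1 (-2.20), Sema4b (-2.19), Nrp2 (-2.07), Sema4d (-1.86), Plxna1 (-1.64) and Plxnb2 (-1.62) were lower in the Lhx6 line. All 5 MGE-derived 2 cells with microglia markers were of the Htr3a line. Without them the differences of Nrp1, Nrp2, Sema4d and Plxnb2 were -0.74, -0.43, -0.86 and -0.0388, none past 1, and Plxna1 was at -0.18 from mean CPM, while Sema6a was at -3.97 and Sema3a at 2.84. All 31 members were counted, 3 higher and 10 lower, beside 8.13% and 31.7% of all genes (39.9% in all), with both medians at -0.46; without the cells with microglia markers 5 were higher and 6 lower.

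In MGE-derived 1 (7 Lhx6 against 11 Htr3a cells) Sema4b was lower in the Lhx6 line at 2.34 against 92.5 CPM (1 of 7 against 7 of 11 cells), a difference of -2.62. Plxna4 (-2.23), Plxna2 (-2.02), Sema4a (-1.84), Sema6a (-1.22), Sema7a (-1.05) and Plxnb1 (-1.02) were lower too, and Plxna3 (1.52), Sema3a (1.11) and Sema6b (1.07) higher. Sema3a was higher in the Lhx6 line in both MGE-derived labels, though in MGE-derived 1 not past 1 under all alternatives: Sema4b, Plxna2 and Sema4a stayed past it, and the remaining named members did not (from mean CPM, Plxna4 -0.82, Plxna3 0.0471 and Sema3a 0.59; from summed counts, Sema6a -0.0278; without the highest cell of each group, Sema7a -0.59 and Sema6b 0.67; without cells with microglia markers, Plxnb1 -0.78). Of 25 counted members 4 were higher and 8 lower, beside 28.3% and 16.2% of all genes (44.5% in all); the medians were -0.49 and 0.24. Under the authors' scaling the counts were 2 and 8, and from summed counts 5 and 13.

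In Glutamatergic 1 (10 Nex against 23 Htr3a cells) Sema3a was higher in Nex cells (169 against 21.2 CPM, with counts in 5 of 10 against 4 of 23 cells), a difference of 3.18 (SD between cells 4.29 and 2.30, n = 10 and 23 cells). Plxnc1 (1.81) and Plxna4 (1.73) were higher as well. Plxna2 was lower, counted in 4 of 10 against 19 of 23 cells (difference -3.04, but 0.27 among cells with 5000 to 9000 genes, 3 of them Nex cells). Plxnb2 (-2.11), Sema6d (-2.02), Nrp2 (-1.76), Sema6c (-1.53) and Sema6a (-1.31) were lower too, and neither Sema6d nor Nrp2 had a count in the Nex cells. Plxna4 was at 0.95 from summed counts and Sema6c at -0.82 with 5000 to 9000 genes. The counts were 3 higher and 6 lower of 27, beside 14.3% and 19.1% of all genes (33.3% in all), with medians of -0.21 and -0.10; from summed counts they were 7 and 11. No difference between lines passed the SD between cells of both groups.

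**Figure D4:**
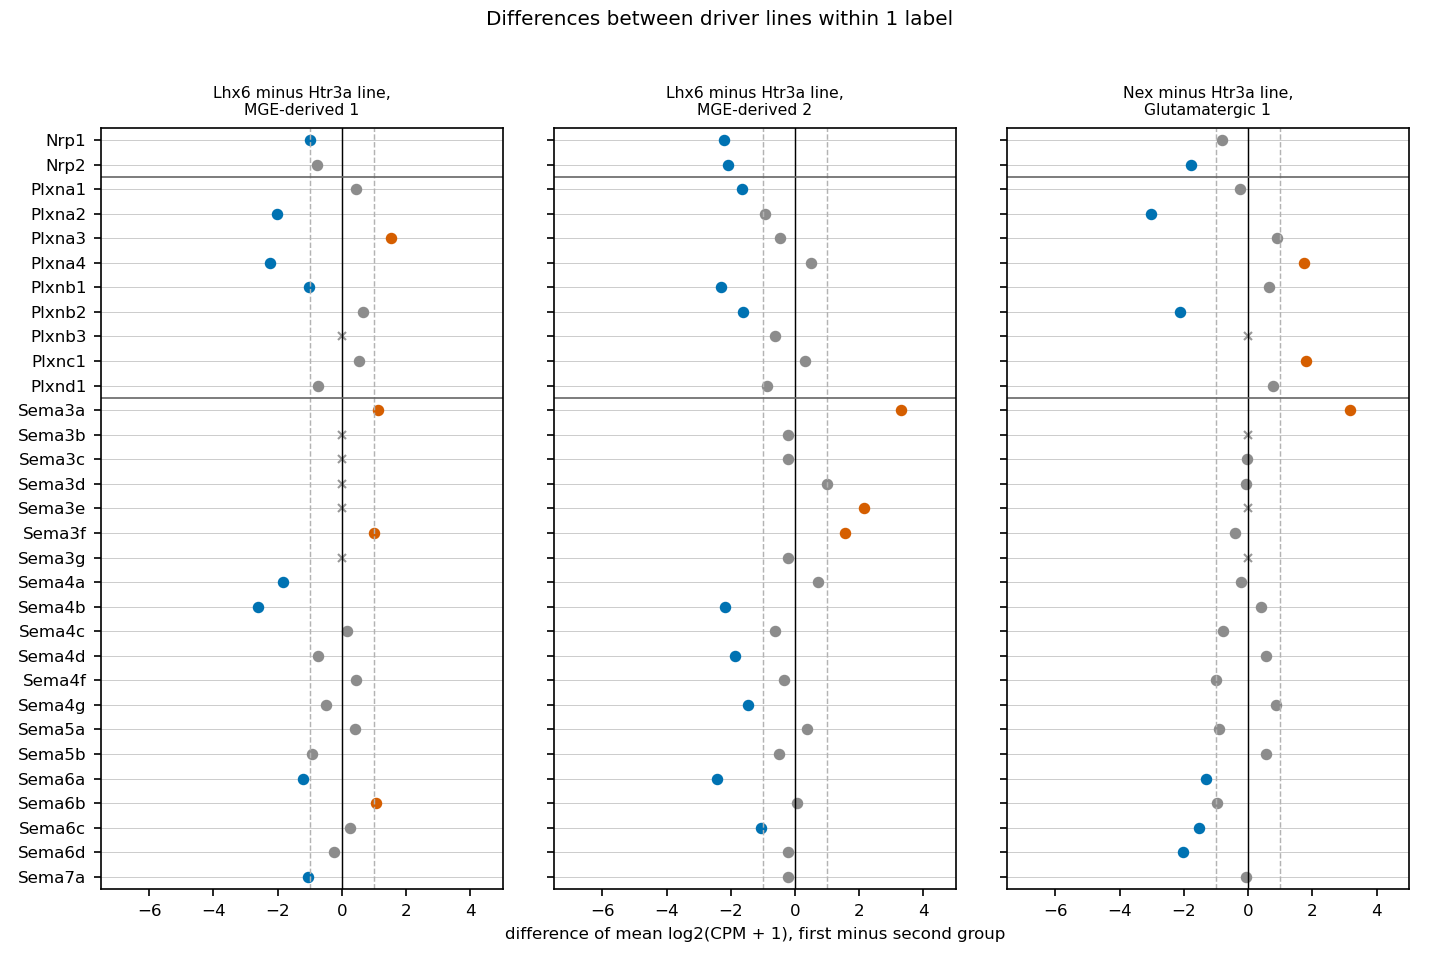
Differences in mean log2(CPM + 1) between driver lines within 1 label, with the Lhx6 or Nex line minus the Htr3a line. Orange points are higher and blue points lower by at least 1, grey points lie within 1 (dashed lines), and crosses mark members not counted; Sema3f and Sema6c in the Lhx6 comparisons and Plxna2 in the Nex comparison have the other sign under some settings. Sema3a lies to the higher side in all 3 comparisons.

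Most class 3 semaphorins signal through a neuropilin and an A plexin together, so cells with counts of both kinds were counted. Of 126 typed cells, 55 held counts of both kinds (43.7%, exact Clopper-Pearson 95% interval 34.8 to 52.8%, which covers counting error only and takes cells as independent), and 49 did after thinning all cells to 1500000 counts. Glutamatergic 2 stood highest with 12 of 13 cells (63.97 to 99.8%); 10 of them held both neuropilins and 9 cells held all 4 A plexins. CGE-derived and VZ-derived cells followed with 7 of 11 each, then MGE-derived 2 with 9 of 24, Glutamatergic 1 with 11 of 33, MGE-derived 1 with 5 of 18, Cajal Retzius with 3 of 12 and GABAergic with 1 of 4. The same interval ran from 17.96 to 51.8% in Glutamatergic 1 and from 30.79 to 89.1% in CGE-derived and VZ-derived cells; these cells may share mice, so the intervals do not set labels apart. All 55 cells with a neuropilin also held an A plexin. Since 121 of 126 typed cells held an A plexin, the counts of both kinds repeat those of cells with a neuropilin. Without cells with microglia markers 39 of 108 cells held both kinds. In MGE-derived 2, Nrp1 was then found in 3 of 19 cells and Nrp2 in 1, against 8 and 6 of 24 with them, so its place in the order rests on those cells. A class 3 semaphorin was found in 89 typed cells, and 45 held it together with a neuropilin and an A plexin.

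**Figure D5:**
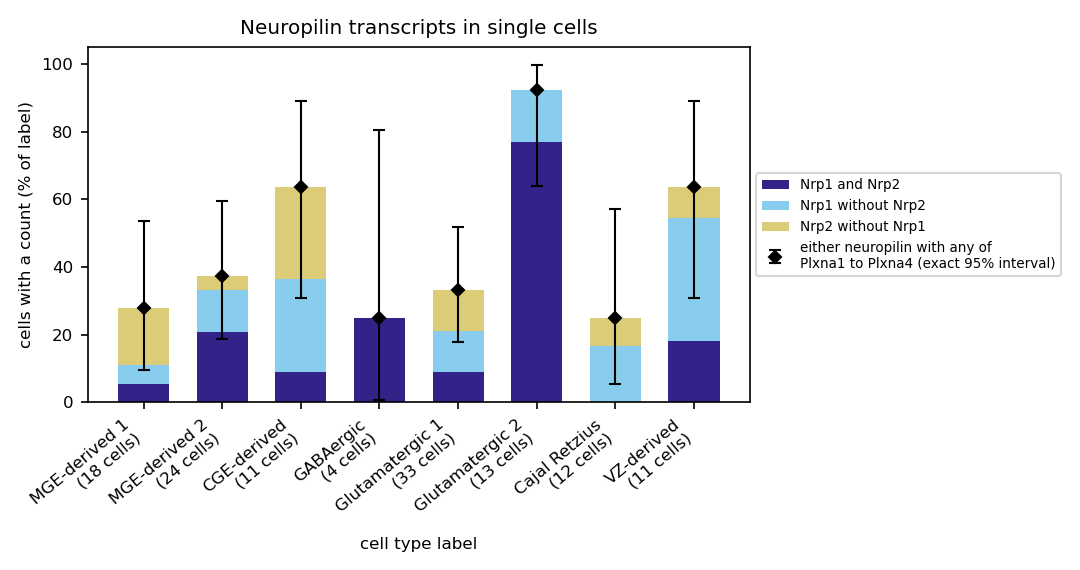
Share of cells, in percent, with counts of both neuropilins, of Nrp1 alone or of Nrp2 alone, as stacked bars by cell type label; diamonds give the share with a neuropilin and any A plexin, with exact 95% intervals. Glutamatergic 2 is the label in which most cells held both neuropilins (10 of 13), and no Cajal Retzius cell did.

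Ligands that bind a plexin directly were also met with their receptors in the same cells; the number after thinning to 1500000 counts follows each count. Among membrane-bound ligands, Sema6a occurred with Plxna2 in 61 of 126 cells (thinned 55) and with Plxna4 in 52 (thinned 44), and Sema6d with Plxna1 in 31 (thinned 22). Sema4c occurred with Plxnb2 in 27 (thinned 20) and Sema4d with Plxnb1 in 22 (thinned 15), of which 9 were MGE-derived 2 cells (thinned 6). Sema7a and its receptor Plxnc1 shared 6 cells (thinned 3), and Sema5a and Plxnb3 2 (thinned 2). The secreted Sema3e and Plxnd1 shared 4 cells (thinned 3). In Glutamatergic 2, where Sema4d was highest, Sema4d and Plxnb1 were found together in 5 of 13 cells (thinned 4). In Cajal Retzius cells, where Plxnd1 was highest, Sema3e and Plxnd1 were found together in 1 of 12 cells, and in 0 after thinning. Shared cells also depend on how many typed cells held each gene. Sema6a was counted in 79, Plxna2 in 87, Plxna4 in 81, Sema6d in 41 and Plxna1 in 71. Sema4c was counted in 39, Plxnb2 in 59, Sema4d in 36, Plxnb1 in 54, Sema7a in 25 and Plxnc1 in 29. Sema5a was counted in 24, Plxnb3 in 9, Sema3e in 11 and Plxnd1 in 38. Whether a pair shared more cells than these counts alone would give was not tested. The number of genes per cell differed between labels, and its part in these counts was not tested.

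Across the 126 typed cells and the 26 members compared, Spearman's rho was at least 0.3 in 17 of 325 pairs and at -0.3 or below in none, with a median of 0.12. It was highest for Nrp1 with Nrp2 (0.51, and 0.47 after the label means were removed). Nrp2 with Sema4d gave 0.50, Nrp1 with Sema4d 0.43 and Plxna2 with Sema3a 0.43, which became 0.28, 0.18 and 0.28 without the label means. Plxnb2 with Plxnd1 gave 0.49 (0.34). Cells share labels, lines and depth, so these values describe the cells and carry no test.

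A list of 12 co-receptors and non-plexin receptors of semaphorins was read beside the members, each count being set against the share of all genes called. L1cam, a partner of Nrp1, and Nrcam, a partner of Nrp2, were lower in the GABAergic class (-2.43 and -2.23); 1 of 8 counted genes was higher and 3 were lower, beside 6.07% and 9.74% of all genes. In MGE-derived against CGE-derived cells Nrcam was lower (-2.87) and Cd72, a receptor of Sema4d on immune cells, higher (2.10), with 2 higher and 3 lower of 11 beside 19.3% and 8.58%. Nrcam was also lower in Cajal Retzius cells (-6.04), in which the contactin Cntn2 was higher (3.88), 3 being higher and 2 lower of 9 beside 30.5% and 9.13%. In Glutamatergic 1 against 2, Cntn2 (-3.83), L1cam (-2.37) and Nrcam (-2.32) were lower, and the counts of 1 higher and 5 lower of 8 stood beside 1.89% and 48.4%. MGE-derived 1 had 0 higher and 2 lower of 9 against MGE-derived 2, led by Chl1 (-2.06), where 22.6% of all genes were lower. VZ-derived cells had 2 higher and 0 lower of 10, led by Ptprs (1.53), beside 13.9% and 16.2%. Between lines the counts were 1 higher (Cd72, 3.998) and 3 lower of 9 in MGE-derived 1 (all genes 28.3% and 16.2%), 1 and 4 of 11 in MGE-derived 2 (8.13% and 31.7%), and 1 and 1 of 9 in Glutamatergic 1 (14.3% and 19.1%). With so few genes, none of these counts was read as a property of the list.

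The second list held 32 proteins that act inside the cell below plexins and neuropilins. The GTPase Rnd3 was higher in the GABAergic class (2.92), where the list had 1 higher and 1 lower of 32, below the shares of all genes given above. Rnd3 was also higher in MGE-derived against CGE-derived cells (5.06), while Rnd2 (-2.53) and the collapsin response mediator Dpysl4 (-2.75) were lower; the list had 8 higher and 5 lower of 32 beside 19.3% and 8.58% of all genes. In MGE-derived 1 against 2 it had 0 and 8 of 31, beside 2.61% and 22.6%. In Glutamatergic 1 against 2, 2 were higher and 19 lower of 30, led by the GTPase Rhoa (-4.26), the oxidoreductase Mical2 (-3.22), Dpysl4 (-3.14) and the kinase Fyn (-3.08). There 48.4% of all genes were lower, and the list's median was -1.24 beside -0.95 for all genes. In Cajal Retzius cells 5 were higher and 6 lower of 31, with the kinase Limk2 (3.32) and Mical2 (3.32) leading, beside 30.5% and 9.13%, and in VZ-derived cells 8 and 8 of 30, beside 13.9% and 16.2%. Between lines the counts were 5 higher and 8 lower of 28 in MGE-derived 1 (all genes 28.3% and 16.2%). They were 4 and 17 of 32 in MGE-derived 2 (Rhoa -4.28; all genes 8.13% and 31.7%) and 4 and 6 of 31 in Glutamatergic 1 (Mical2 3.04; all genes 14.3% and 19.1%).

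Members also differed between the 18 cells with microglia markers and the other 108 typed cells. Nrp1 was at 120.0 against 58.5 CPM (13 of 18 against 29 of 108 cells), Nrp2 at 62.5 against 28.96 (14 and 22 cells) and Sema4d at 54.9 against 13.3 (12 and 24 cells). Sema3a and Sema6a went the other way, at 2.25 against 93.9 and 28.2 against 116 CPM. Without these cells, Nrp1 in MGE-derived 2 was at 4.84 in place of 18.6 CPM, Nrp2 at 1.79 in place of 20.8, Plxnb2 at 0.0336 in place of 13.9 and Plxnd1 at 0 in place of 3.55. In Glutamatergic 2, Nrp1 was at 289 CPM (10 of 11 cells), Nrp2 at 88.01 (9 of 11) and Sema4d at 90.4 (9 of 11) without them, and Plxnd1 in Cajal Retzius cells at 36.002 (8 of 10). All 6 typed cells with more than 10000 genes were among the 18.

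Some members lie near each other in GRCm38: Sema3a and Sema3e are 422.7 kb apart and Sema3a and Sema3d 536.5 kb apart on chromosome 5, Sema3b and Sema3f 72.3 kb on chromosome 9, and Plxna3 and Plxnb3 556.6 kb on chromosome X. Neighbours did not all share their highest label: Sema3a and Sema3e were highest in MGE-derived 2, but Sema3d in Glutamatergic 2, and Plxna3 was found in most labels where Plxnb3 was at or near 0. Exons of Plxna1 overlap the antisense gene Gm26811 over 10.7% of their length, those of Sema4c another gene over 7.27% and those of Plxnb1 over 2.68%. Whether counting used the strand is not given in the sources used here, so these reads cannot be assigned to 1 of the genes.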

How the data were processed

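Counts per gene and cell were deposited by the authors as raw counts by Ensembl identifier; per the submitters' processing notes the tools were Trimmomatic, STAR and featureCounts with build GRCm38, and their versions, options and use of strand are not given in the sources used here. The labels' protocols name standard Illumina libraries and no molecular identifiers, so intervals cover counting error only. The authors also deposited a normalized signal table; 99.9% of its values, and all 4588 of the members, equal the counts divided by 1 factor per cell (0.404 to 6.05) within 0.1%. A further table of counts by symbol was not used here.

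Symbols came from GENCODE M21 (22570 of 22880 identifiers matched), and exon lengths from the same annotation. Python 3.11.15, pandas 2.3.3, numpy 2.4.6 and scipy 1.17.1 were used, and matplotlib 3.10.9 for figures; the steps were tested on simulated data. No 2 cells held identical values. Levels are CPM with a pseudocount of 1 on the log2 scale; genes with a count in under 10% of the cells of both groups were not counted, and a log2 difference of at least 1 was called. Each group is 1 sample, so no test was run. Thinning drew 1500000 counts per cell. The members named in full are those in at least 50% of the cells of a label with at least 20 CPM there; in a comparison up to 10 called members are named by size, and up to 4 genes of each pathway list. The rule for the members uses symbols alone, but this family and the lists were picked with earlier results of these data known. Promoters from the RefSeq table were used for 26 of 31 members, not for Plxna1, Plxna4, Sema3b, Sema3f and Sema6a. Members' windows on chromosome 18, which holds Sema6a, were left out. The alternatives were the authors' scaling, summed counts, mean CPM, pseudocounts of 10 and 0.1, filters at 0 and 25% of cells, thinning, cells of at least 4000 genes, the highest cell left out of each group, and other choices of driver line. Leaving out cells with microglia markers, those with more than 10000 genes, or all but those with 5000 to 9000 genes was added after seeing the data.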

Additional observations from a re-analysis of the deposited data

Results flagged for a closer look

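Single cells that stood apart from the rest of their label and line were looked for among 44 sets of 4 to 10 cells, by the gap of the highest or lowest cell to its neighbour over the range (Dixon's criterion at 95%). Chance flags about 1 in 20 such sets where values are spread normally. These sets hold many zeros, and a set with a single cell above 0 always meets the criterion, as 8 of the 14 found here did, so their number says nothing against that rate. All values are log2(CPM + 1).

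In MGE-derived 1 cells of the Lhx6 line, 1 of 7 cells alone held Plxna4 (8.46), Plxnb1 (5.95), Sema3f (7.78), Sema4a (0.24) or Sema4b (4.03), with the other 6 at 0; Plxna4 and Sema4b were in the same cell, as were Plxnb1 and Sema4a. In MGE-derived 2 cells of that line the high cells were at 0.53 for Nrp1, 7.22 for Plxnb1, 2.30 for Sema4b and 4.52 for Sema4g. In Glutamatergic 1 cells of the Nex line, 1 of 10 cells stood out for both Plxnb2 (7.56) and Sema6a (7.96), and another for Sema6c (4.79). Among 8 VZ-derived cells of the Htr3a line, 1 stood out for Sema4d (2.12) and another for Sema6b (4.43).

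The 14 cells that failed quality control entered no comparison. Over them 25 of the 31 members had more than 3 counts, among them Sema6a with 31206 counts in 6 cells and Plxna2 with 30365 counts in 7 cells.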

How the results depend on the processing

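Of 1313 recomputed differences of called members, 1248 kept their direction and moved by at most 1 SD between cells, 48 moved further and 17 changed sign. The filters on the share of cells do not alter a difference, so their values could not move. For most called members the SD in at least 1 group exceeded the difference, so a move within it can be large. Of the 98 calls, 42 stayed past 1 under every alternative other than the pseudocount of 10. Changed signs were, from summed counts, Sema6a in MGE-derived against CGE-derived cells (-0.26), Sema3c (1.06) and Sema4g (0.0378) in Glutamatergic 1 against 2, Sema4g in Cajal Retzius cells (-0.0138) and Sema6c in the Lhx6 line of MGE-derived 2 (1.10). From mean CPM they were Sema6a (-0.11), Plxna2 in MGE-derived 1 against 2 (0.23), Sema3c (0.83), Sema4g (0.20, and -0.35 in Cajal Retzius cells), Plxnb2 in Cajal Retzius cells (-0.42) and Sema6c (1.17). Others were Plxna3 in VZ-derived cells over all lines (-0.0789), Sema3f in the Lhx6 line of MGE-derived 1 without the highest cell (-0.045) or with at least 4000 genes (-0.17), and, among cells of 5000 to 9000 genes, Nrp1 in MGE-derived 1 against 2 (0.81) and Plxna2 in the Nex line (0.27).

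Counts were within 1.5 times of the main value in 95 of 130 alternatives. Most were numbers of called members, and the rest were members named in full or cells with a neuropilin and an A plexin. From summed counts the number of called members became 16 (GABAergic class), 21 (MGE against CGE), 16 (MGE-derived 1 against 2), 17 (VZ-derived), 25 (Lhx6 in MGE-derived 2), 18 (Nex). From mean CPM it became 16 (GABAergic class), 23 (MGE against CGE), 16 (MGE-derived 1 against 2), 15 (VZ-derived), 19 (Lhx6 in MGE-derived 1), 25 (Lhx6 in MGE-derived 2), 18 (Nex). With a pseudocount of 10 it became 0 (GABAergic class), 5 (MGE against CGE), 1 (MGE-derived 1 against 2), 7 (Glutamatergic 1 against 2), 7 (Cajal Retzius), 3 (VZ-derived), 4 (Lhx6 in MGE-derived 1), 6 (Lhx6 in MGE-derived 2), 4 (Nex), and with 0.1 it became 15 (GABAergic class), 12 (MGE-derived 1 against 2), 15 (VZ-derived), 17 (Nex). Without the highest cell of each group it became 8 (MGE-derived 1 against 2), 14 (VZ-derived), 7 (Lhx6 in MGE-derived 1). With at least 4000 genes it became 15 (Nex) and with 5000 to 9000 genes 13 (GABAergic class), 14 (MGE-derived 1 against 2), 18 (Nex); MGE-derived 1 against 2 had 8 in the Htr3a line alone and VZ-derived 4 over all lines. Splits that shifted by scaling were, higher and lower, 4 and 3 for the GABAergic class under the authors' scaling, 7 and 9 from mean CPM, 4 and 11 for Lhx6 in MGE-derived 2 and 3 and 7 for Nex under the authors' scaling, and 8 and 17 for Lhx6 in MGE-derived 2 from summed counts. Between 5000 and 9000 genes too few cells were left for the Lhx6 comparisons, which were not run, nor were counts by symbol. No paired analysis was possible because each sample is 1 cell and the replicate numbers only name cells. Members below a few CPM rest on few counts and on few cells.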

Other observations

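The 22 passed cells labelled Undefined held all 31 members in at least 1 cell. Plxna3 had a count in 19 of these cells (0 to 940.1 CPM, median 40.5), Sema4g in 20 (0 to 722 CPM, median 10.2) and Plxna2 in 18 (0 to 368 CPM, median 70.9). Plxnb2 ranged from 0 to 1151 CPM with a median of 36.99. Nrp1 was found in 10 cells and Nrp2 in 7, with medians of 0 and highest values of 497 and 458 CPM. Sema3e reached 725 CPM in 1 cell.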
